A study of Mus musculus with 8 samples.

Results

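The Ugt2 gene cluster of mouse chromosome 5 was followed in the kidneys of Pus1 mutant and wild-type mice through 7 of its genes, Ugt2b34, Ugt2b35, Ugt2b36, Ugt2b5, Ugt2b37, Ugt2a3 and Ugt2b38. Every array probe whose accession carries 1 of these 7 symbols was taken, which gave 8 probes of 55681 on the array and 7 genes of 20887 named there. A probe was kept where at least 4 of the 8 samples were well above background by the scanner's own mark. That left 7 of the 8 Ugt2 probes, 1 for each gene, among 28960 kept probes in all. The genes were chosen by their mutant to wild-type ratios on these same arrays, so those ratios are given as a description with no test.

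UDP-glucuronosyltransferases are enzymes of the endoplasmic reticulum membrane that join glucuronic acid, taken from UDP-glucuronate, to steroids, bile acids, fatty acids and drugs, which makes these compounds more soluble and ready for excretion. The Ugt2b genes encode the 2B subfamily, known mainly for steroid and drug substrates, and in humans UGT2A3 is known for bile acids. Liver is the main site of these enzymes, and in the kidney they lie chiefly in proximal tubule cells.

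RNA was taken from frozen cross sections of whole kidney of 4 homozygous Pus1 mutant mice and 4 wild-type mice. All 8 mice were 14 to 16 weeks old and of the strain C57BL/6J, backcrossed over 5 generations before the experiment. The labels do not say which stretch of Pus1, the gene of a pseudouridine synthase that modifies tRNA, was altered. Each of 4 dual-colour Agilent arrays, all on 1 slide, set 1 mutant against 1 wild-type animal of like sex, with females as replicates 1 and 2 and males as replicates 3 and 4. The mutant was labelled with Cy5 on arrays 1 and 3 and with Cy3 on arrays 2 and 4. All values below are log2 normalized intensities of a probe (its level) or log2 differences between such levels, and a level of 1 probe is not set against that of another.

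The arrays were of even depth, with 26919 to 30529 probes well above background in a sample, and levels over kept probes correlated between samples by 0.955 to 0.9945. No Ugt2 probe was saturated in any sample. The targeted gene Pus1 was at 7.31 ± 0.27 in the mutants and 10.27 ± 0.18 in the wild types (SD, n = 4 each), with ratios of −2.93, −2.85, −3.09 and −2.98 on arrays 1 to 4. All 17 listed markers of the first proximal tubule segments, such as Slc5a2 and Lrp2, and all 9 of the last segment were kept. Slc7a13, a transporter of the last segment in male mice, was well above background in 4 of 8 samples. In whole kidney, fewer cells of a type and less RNA per cell cannot be told apart.

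The 7 genes lie within 534.4 kb, between positions 86889770 and 87424203 of chromosome 5 in the GRCm38.p6 build, and the end of the cluster is 23.35 Mb from Pus1, which lies at chr5:110773667-110780649. In chromosomal order they are Ugt2b34 (86889770 to 86906937), Ugt2b35 (87000860 to 87013274), Ugt2b36 (87065927 to 87092555), Ugt2b5 (87124946 to 87140340), Ugt2b37 (87240492 to 87254788), Ugt2a3 (87324972 to 87337195) and Ugt2b38 (87409939 to 87424203). Ugt2b35 runs on the plus strand and the other 6 on the minus strand. The promoters are shown because the genes fell into groups by level, described after them. RefSeq's table for GRCm38.p6 held a promoter for all 7, from 250 bases before to 50 bases after the start. The last 110 bases before each start are printed 5′ to 3′ on the gene's own strand. Capitals mark GTTANANTTTAAC and GATAAAAGG, and in Ugt2a3 the letters GTTAAT.
Ugt2b34: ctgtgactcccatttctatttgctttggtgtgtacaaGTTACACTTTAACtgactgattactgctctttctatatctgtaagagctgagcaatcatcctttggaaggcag
Ugt2b35: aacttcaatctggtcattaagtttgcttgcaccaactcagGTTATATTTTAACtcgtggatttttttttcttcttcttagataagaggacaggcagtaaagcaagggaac
Ugt2b36: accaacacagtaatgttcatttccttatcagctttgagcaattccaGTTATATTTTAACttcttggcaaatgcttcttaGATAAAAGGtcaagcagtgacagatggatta
Ugt2b5: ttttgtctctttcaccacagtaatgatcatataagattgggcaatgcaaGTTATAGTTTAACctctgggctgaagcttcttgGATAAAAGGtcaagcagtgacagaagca
Ugt2b37: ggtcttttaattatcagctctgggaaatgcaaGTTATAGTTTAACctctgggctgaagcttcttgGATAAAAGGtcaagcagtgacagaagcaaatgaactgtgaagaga
Ugt2a3: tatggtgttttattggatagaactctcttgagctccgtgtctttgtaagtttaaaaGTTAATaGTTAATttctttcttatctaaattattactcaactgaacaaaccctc
Ugt2b38: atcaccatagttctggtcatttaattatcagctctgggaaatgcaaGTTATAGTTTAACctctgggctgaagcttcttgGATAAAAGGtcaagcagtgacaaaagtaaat
They lie, in the same order, at chr5:86906938-86907047, chr5:87000750-87000859, chr5:87092556-87092665, chr5:87140341-87140450, chr5:87254789-87254898, chr5:87337196-87337305 and chr5:87424204-87424313.

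The block GTTANANTTTAAC was present in 6 of 7 promoters and absent from that of Ugt2a3. It began between 61 bases (Ugt2b5) and 78 bases (Ugt2b37) before the start. Over both strands of all 32851 promoters of this length, 11 (0.0335%) held it. GATAAAAGG, which resembles a TATA box, was present in Ugt2b36, Ugt2b5, Ugt2b37 and Ugt2b38, 28 to 45 bases before the start, and in 91 promoters of all (0.277%). Both blocks were chosen after the sequences had been read, and the first is the stretch that the 6 promoters have in common. The printed bases of Ugt2b35 hold GATAAGAGG, which differs from GATAAAAGG by 1 letter and was not counted. Among motifs taken from their textbook letters, GTTAAT was present in 1 of 7 (Ugt2a3, 54 and 47 bases before the start) and in 7.1% of all promoters. AGAACA, part of the site of steroid hormone receptors, was present in 2 of 7 (Ugt2b34 and Ugt2b36, outside the printed bases) and in 19% of all. TATAAA (13.6% of all) was in none of the 7. A match here is a description of letters, not a site. Over the 300 bases, Ugt2b37 and Ugt2b38 were 86.9% identical, Ugt2b5 and Ugt2b38 84.2%, and Ugt2b5 and Ugt2b37 76.2%. Ugt2b36 was 60.7% to 63.9% identical to these 3, and Ugt2b34 was 46.3% to 50.3% identical to each other gene of the 7. The probe sequences were not used here, so whether each probe tells these related genes apart was not tested.

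The genes showed 3 patterns over the 8 samples. Ugt2b36, Ugt2b5, Ugt2b37 and Ugt2b38 varied together and were low in the mutant mice of replicates 2 and 3 and close to wild type in those of replicates 1 and 4. Ugt2b35 was also low in mutants 2 and 3. Ugt2b34 separated the sexes, with mutants close to wild types, and Ugt2a3 varied little.

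Ugt2b38 had the widest range, 6.94 on the log2 scale. In the females its level was 11.59 in mutant 1, 7.98 in mutant 2, 11.82 in wild type 1 and 13.00 in wild type 2. In the males it was 11.93 in mutant 3, 14.41 in mutant 4, 14.92 in wild type 3 and 14.53 in wild type 4. Mutant 2 was the lowest of all 8 samples, and the male mutant 3 lay near the female wild type 1. The ratio of mutant over wild type was −0.23, −5.02, −2.99 and −0.12 on arrays 1 to 4, so wild type was 32.4-fold above mutant on array 2, 7.96-fold on array 3, and 1.17-fold and 1.09-fold on arrays 1 and 4. Over 4 mice each, the mutant mean was 11.48 ± 2.65 (SD, n = 4) and the wild-type mean 13.57 ± 1.43 (SD, n = 4), and the groups overlapped.

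Ugt2b37 was 9.57 in mutant 1 and 7.90 in mutant 2 among the females, against 9.89 and 10.77 in the wild types. Among the males it was 11.29 in mutant 3 and 12.71 in mutant 4, against 13.21 and 12.60. Its ratios were −0.32, −2.87, −1.92 and 0.11. The males stood above the females, and within each sex 1 mutant was far below its partner while the other was within 0.32 of it.

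Ugt2b5 was 8.91 and 7.37 in female mutants 1 and 2, against 9.15 and 10.16 in the wild types. In the males it was 10.61 and 11.80 in mutants 3 and 4, against 12.45 and 11.76. Its ratios were −0.25, −2.80, −1.84 and 0.04, with wild type 2 at 6.94-fold mutant 2 and wild type 3 at 3.59-fold mutant 3. The order of the samples was that of Ugt2b37.

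Ugt2b36 was 8.81 and 7.12 in female mutants 1 and 2, against 8.88 and 9.98 in the wild types, and mutant 2 was not well above background. In the males it was 10.10 and 11.44 in mutants 3 and 4, against 11.82 and 11.49. Its ratios were −0.07, −2.86, −1.72 and −0.04, of which that on array 2 is taken against the dim signal of mutant 2. The gap was 3.30-fold on array 3, where both samples were measured above background.

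Ugt2b35 had 2 probes. A_51_P163578 was not well above background in any of the 8 samples, between 5.83 and 6.43, and gives no ratio for the gene. A_55_P1967350 was 7.28 in mutant 1, 6.59 in mutant 2, 7.44 in wild type 1 and 7.68 in wild type 2 among the females. Among the males it was 6.40 in mutant 3, 8.35 in mutant 4, 9.19 in wild type 3 and 8.54 in wild type 4. Mutants 2 and 3 were not well above background, and the other 6 samples were. The ratios were −0.16, −1.08, −2.80 and −0.19. Those on arrays 2 and 3 are taken against dim signals and are not measured gaps. With each dim mutant at no less than the lowest level well above background in its sample, wild type was 1.84-fold higher on array 2 and 6.21-fold higher on array 3. These are not strict bounds, since a dim signal can lie above that lowest level, as that of Ugt2b36 did in mutant 2 (7.12 against 6.80). The gaps have no order.

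Ugt2b34, at the end of the cluster farthest from Pus1, was 12.25 and 12.13 in female mutants 1 and 2 and 12.01 and 12.22 in the female wild types. In the males it was 10.22 and 9.98 in mutants 3 and 4 and 10.64 and 10.20 in the wild types. Its ratios of 0.25, −0.09, −0.42 and −0.22 were all within 0.42 of 0, while the sexes did not overlap.

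Ugt2a3, which lies between Ugt2b37 and Ugt2b38, stayed between 7.08 and 8.10 in all samples. It was 7.22, 7.63, 8.10 and 7.57 in mutants 1 to 4 and 7.31, 7.08, 7.84 and 7.41 in wild types 1 to 4. Its ratios were −0.09, 0.55, 0.26 and 0.16, so on array 2 it was above wild type while the genes on either side of it were below.

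**Figure D1:**
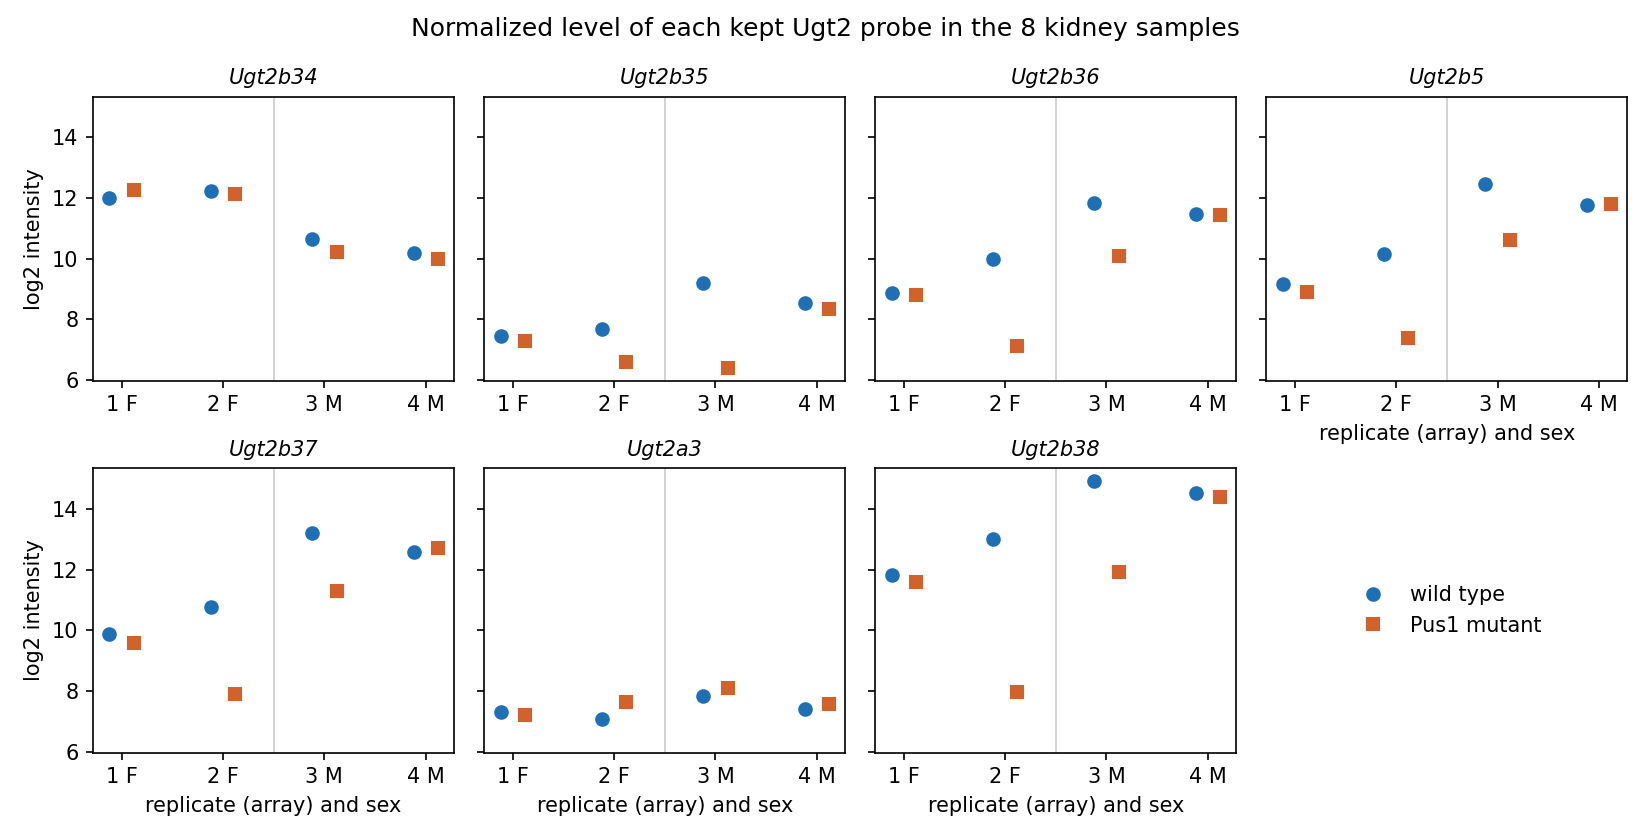
Log2 normalized intensity of the kept probe of each Ugt2 gene in each sample, by replicate number (1 and 2 female, marked F; 3 and 4 male, marked M), with wild type as blue circles and Pus1 mutant as orange squares. In Ugt2b36, Ugt2b5, Ugt2b37 and Ugt2b38 the mutant squares of replicates 2 and 3 lie far below their partners, and in Ugt2b34 females lie above males.

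The 7 kept probes had a median ratio of −2.80 on array 2 and −1.84 on array 3, beside −0.02 and 0.01 over all 28960 kept probes. On arrays 1 and 4 it was −0.16 and −0.04, beside 0.00 and −0.01. On both array 2 and array 3, 5 of 7 were at or below −1, a rule that 12 probes (0.0414%) met over the whole array; on array 2 alone 1.03% of all probes were so low and on array 3 alone 0.0932%. On arrays 1 and 4 none of the 7 was, beside 0.501% and 0.162% of all probes. Over all kept probes 6 (0.0207%) passed limma's test for genotype, and 1305 (4.51%) had an unadjusted p below 0.05. Without replicates 1, 2, 3 and 4 the first count was 1, 3, 1 and 2. Since the genes were chosen from this contrast, nothing is read from these shares. Array 2 carried the mutant in Cy3 and array 3 in Cy5, so the low values came in both dye orientations. Averaged over the 4 arrays, the ratios were −2.09 ± 0.80 for Ugt2b38, −1.25 ± 0.48 for Ugt2b37 and −1.21 ± 0.47 for Ugt2b5. They were −1.17 ± 0.47 for Ugt2b36, with mutant 2 not well above background, and −1.06 ± 0.40 for Ugt2b35, with mutants 2 and 3 not well above background. For Ugt2b34 and Ugt2a3 they were −0.12 ± 0.12 and 0.22 ± 0.10. Each ± is limma's moderated SE from the fit with a dye term (n = 4 arrays), which draws on the spread of all probes. The SD of the 4 ratios themselves was larger, from 1.23 for Ugt2b35 to 2.36 for Ugt2b38 among the 5 low genes. Fitted with the dye term on the arrays left, the ratio of Ugt2b38 was −0.87 without replicate 2 and −3.32 without replicate 4. These are not plain means, since the array left alone in its dye orientation weighs more. In none of the 7 genes were all mutants below all wild types (0.262% of all probes), and in 3 the ratio was below 0 on all 4 arrays (3.93% of all probes). The ratio of the male arrays minus that of the female arrays was 1.07 for Ugt2b38, 0.68 for Ugt2b37, 0.62 for Ugt2b5, 0.58 for Ugt2b36, −0.87 for Ugt2b35, −0.40 for Ugt2b34 and −0.02 for Ugt2a3. These differences were smaller than the gap between the arrays of 1 sex in the first 4 genes and were not tested. Those of Ugt2b35 and Ugt2b36 include the ratios taken against dim mutants.

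**Figure D2:**
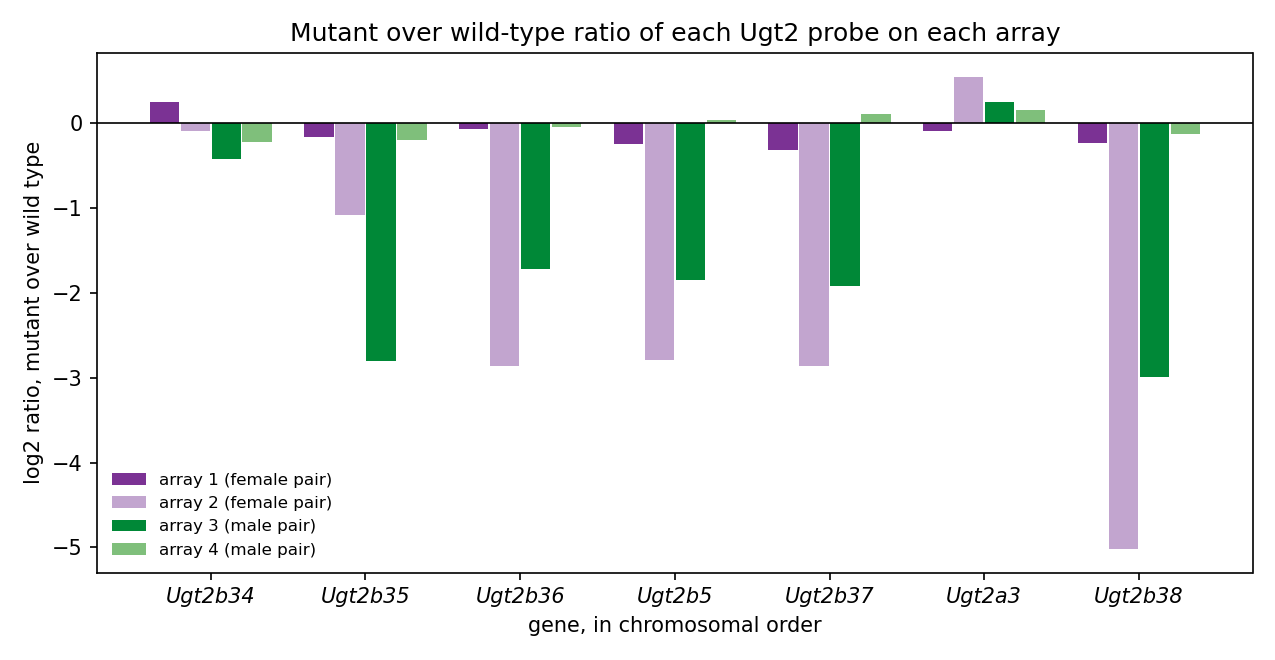
Log2 ratio of mutant over wild type (vertical axis) of each kept Ugt2 probe, with the genes in chromosomal order and 1 bar for each array (purple for female pairs, green for male pairs). The bars of arrays 2 and 3 reach between −1.08 and −5.02 in Ugt2b35, Ugt2b36, Ugt2b5, Ugt2b37 and Ugt2b38, while no bar of arrays 1 and 4 passes 0.32 in size.

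Markers of other tissues also differed within pairs. The 10 urothelium markers, all kept, had median ratios of −1.91, −1.51, 1.88 and −0.08 on arrays 1 to 4, and their summed intensity ran from 3125 to 11420 in the mutants and from 1934 to 17700 in the wild types. The 9 kept of 10 perirenal fat markers had medians of −1.75, −1.79, 1.88 and 0.50, with sums of 42220 to 148200 in mutants and 36300 to 351000 in wild types. Both lists were lower in the mutant on array 2, where the Ugt2 median was −2.80, and on array 1, where it was −0.16, and both were higher on array 3, where it was −1.84. The 9 kept of 10 hepatocyte markers had medians of 0.21, −0.85, 0.25 and 0.20, with sums of 24170 to 58710 in mutants and 17910 to 67750 in wild types. Markers of the first proximal segments had medians of 0.35, −0.04, 0.00 and 0.11 and those of the last segment 0.06, 0.08, 0.06 and −0.24. The sums of the first segments were 982400 to 1376000 in mutants and 1024000 to 1258000 in wild types, and those of the last segment 437000 to 548200 and 437800 to 517000. The part of these tissues in the Ugt2 ratios was not tested.

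The neighbouring genes did not share the low ratios. Within 2 Mb of the cluster the array named 41 other genes, of which 14 had 21 kept probes. On array 2 their ratios ran from −0.84 to 0.86 with a median of −0.05, and on array 3 from −0.46 to 0.84 with a median of −0.06. None of the 21 was at or below −1 on any array. Ythdc1, which encodes a reader of methylated adenosine in RNA, is the nearest kept gene before the cluster and had ratios of 0.46, −0.50, 0.17 and −0.29. Sult1b1, a sulfotransferase gene and the nearest kept gene after it, had ratios of 0.11, −0.01, −0.09 and 0.06. Of the other Ugt2 genes of the region, Ugt2b1, between Ugt2b34 and Ugt2b35, and Ugt2a1, after Ugt2b38, each had a probe that was not well above background in any of the 8 samples. Among the cluster genes measured above background, the 5 with low ratios were interrupted by Ugt2a3 and bounded by Ugt2b34. Ugt2a3 was itself low in level, at 7.08 in wild type 2 and 7.63 in mutant 2, so no fall was seen on array 2. The lowest level well above background in mutant 2 was 6.80, so a fall from 7.08 as large as that of its neighbours could not have been measured there.

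**Figure D3:**
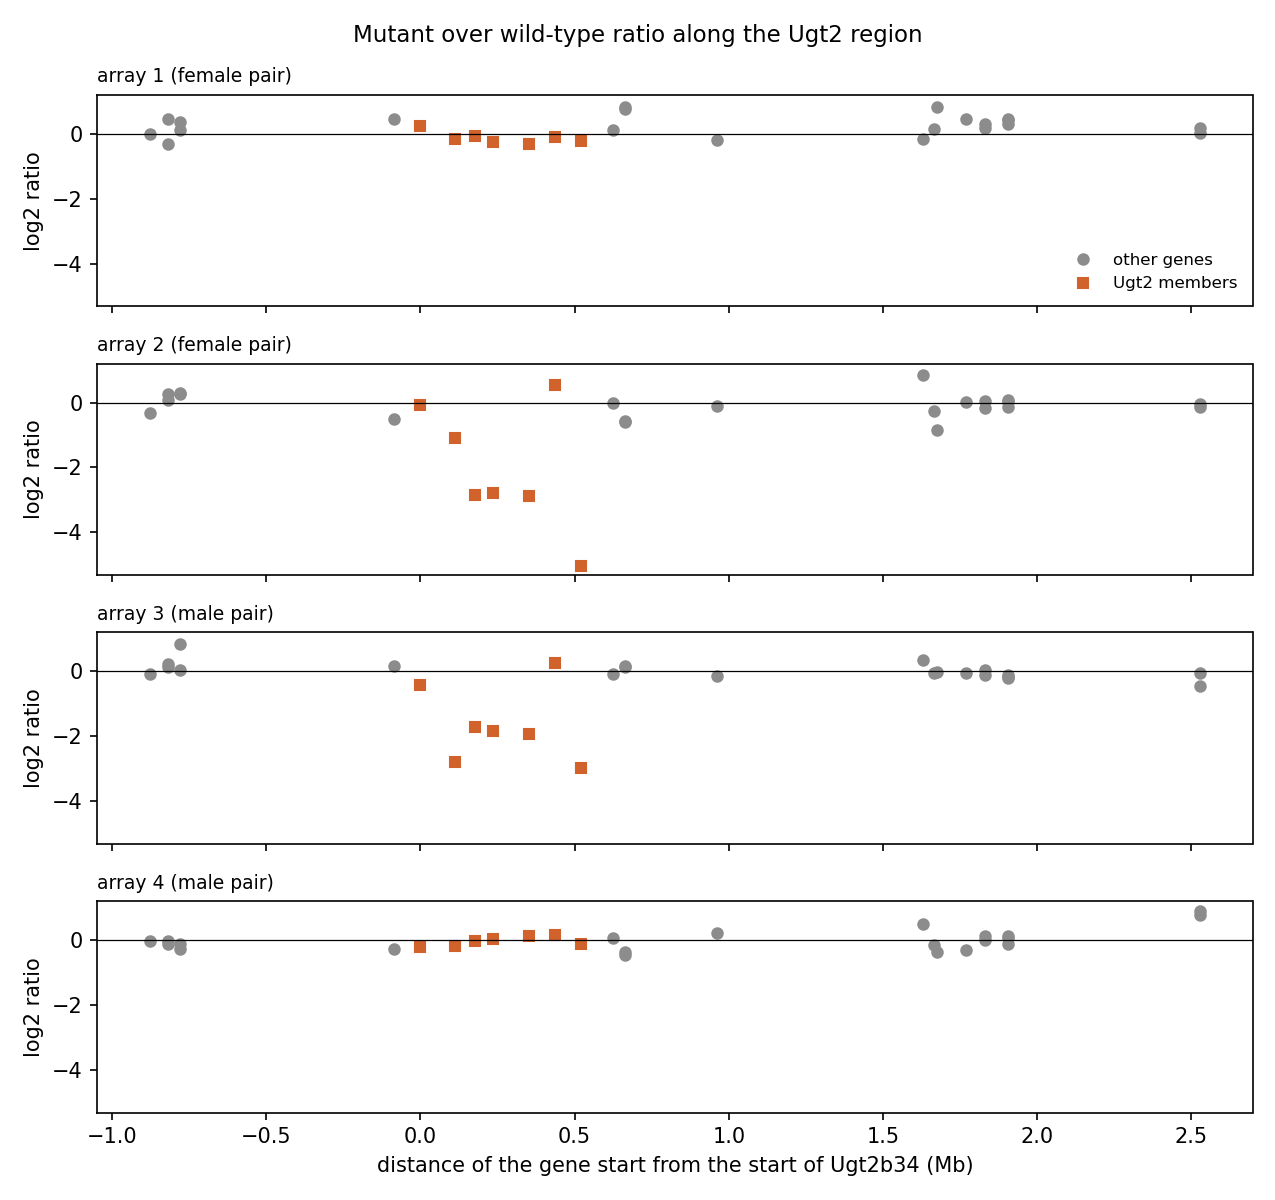
Log2 ratio of mutant over wild type (vertical axes) of the kept Ugt2 probes (orange squares) and of the 21 kept probes of other genes within 2 Mb (grey circles), against the distance of the gene start from that of Ugt2b34 in Mb, with 1 panel for each array. On arrays 2 and 3 the squares fall to −5.02 and −2.99 while every grey circle stays above −1.

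Ugt2b36, Ugt2b5, Ugt2b37 and Ugt2b38 correlated with each other by 0.951 to 0.9991 across the 8 samples (Pearson r, n = 8). After the mean of each sex was taken away the correlations were 0.975 to 0.9969. Ugt2b35 correlated with the 4 by 0.78 to 0.84. Ugt2b34 correlated with them by −0.81 to −0.63, and by 0.19 to 0.31 within the sexes. Ugt2a3 correlated with the 4 by −0.0001 to 0.29 over the samples and by −0.81 to −0.71 within the sexes. These points share arrays and normalization, and mutants 2 and 3 carry much of the spread.

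The sex of the mice was not used to choose the genes, and males were compared with females on the mean of both channels of each array. The background is high, since 12203 of 28960 probes (42.1%) passed limma's moderated test with Benjamini-Hochberg adjustment over all kept probes, 5195 (17.9%) higher in males and 7008 (24.2%) lower. The split turned without single female pairs: 3983 probes passed without replicate 1, 2399 higher and 1584 lower, and 3100 without replicate 2, 1970 higher and 1130 lower. It was 54.1% higher in the wild-type samples alone and 54.3% in the mutant samples alone. With median scaling of the arrays in place of quantiles 15490 passed, 28.4% of them higher in males against 42.6%, and the median difference of all probes went from −0.09 to −0.21. Of the Ugt2 genes 5 of 7 were higher in males, 1 was lower and 1 did not pass. Their median difference was 2.52, beside −0.09 over all probes. Females lay at the first 2 slide positions and males at the others, so sex and slide position cannot be told apart. The labels name separate individuals, and 2 arrays a sex carry the test.

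Ugt2b37 was higher in males by 2.92 ± 0.19 (SE, 2 arrays per sex, limma adjusted p = 0.00105), or 7.55-fold. Its level was 9.53 ± 1.20 in females and 12.45 ± 0.82 in males (SD, n = 4 mice each), and all 4 males were above all 4 females. Ugt2b5 was 6.76-fold higher (2.76 ± 0.14, adjusted p = 0.000623) and Ugt2b36 5.72-fold higher (2.52 ± 0.20, adjusted p = 0.00154), again with no overlap. Such a separation was found in these 3 of 7 genes and in 18.3% of all probes. The SEs are those of array means, in which a low mutant and its higher partner average out, and do not measure the spread between mice. With no replicate block the SE was larger, 0.43 for Ugt2b5 and 0.45 for Ugt2b36. Both still passed in that setting (limma adjusted p = 0.00176 and 0.00306). Ugt2b38 was 7.20-fold higher in males (2.85 ± 0.50, adjusted p = 0.0118), but male mutant 3 lay below female wild type 2. Without replicate 2 its difference was 2.24 and no longer passed (adjusted p = 0.0601), and without replicate 1 it was 3.45 (adjusted p = 0.0307).

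Ugt2b34 was the exception. It was lower in males by 3.71-fold (−1.89 ± 0.13, adjusted p = 0.00114), at 12.15 ± 0.11 in females and 10.26 ± 0.28 in males (SD, n = 4 each). All 4 males were below all 4 females, as in 24% of all probes. Ugt2b35 was 1.83-fold higher in males (0.87 ± 0.23, adjusted p = 0.0328), with mutants 2 and 3 not well above background, and this call was lost in 8 of 15 alternatives. Ugt2a3 did not pass (0.42 ± 0.17, adjusted p = 0.105), and it did without replicate 4 (0.66, adjusted p = 0.0105) and with median scaling (0.44, adjusted p = 0.0466).

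The sex difference was also taken in each genotype alone, a step added after seeing the data. In the 4 wild-type mice it was 2.57 ± 0.33 for Ugt2b37, 2.45 ± 0.37 for Ugt2b5, 2.31 ± 0.35 for Ugt2b38, 2.22 ± 0.32 for Ugt2b36, 1.31 ± 0.23 for Ugt2b35 and −1.69 ± 0.19 for Ugt2b34 (SE), and all 6 passed limma's test (adjusted p from 0.00344 to 0.0142), as did 22.4% of all probes. For Ugt2a3 it was 0.43 ± 0.14 (adjusted p = 0.0772). Both wild-type males were above both wild-type females in 6 of 7 genes, beside 25.7% of all probes. In the 4 mutant mice the difference was 3.38 ± 1.35 for Ugt2b38 (adjusted p = 0.125), 3.26 for Ugt2b37 (0.0311), 3.07 for Ugt2b5 (0.0272), 2.81 for Ugt2b36 (0.042), 0.44 for Ugt2b35 (0.605), 0.41 for Ugt2a3 (0.254) and −2.09 for Ugt2b34 (0.00141), so 4 of 7 passed, beside 23.9% of all probes. Whether the sex difference depends on genotype was not tested.

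**Figure D4:**
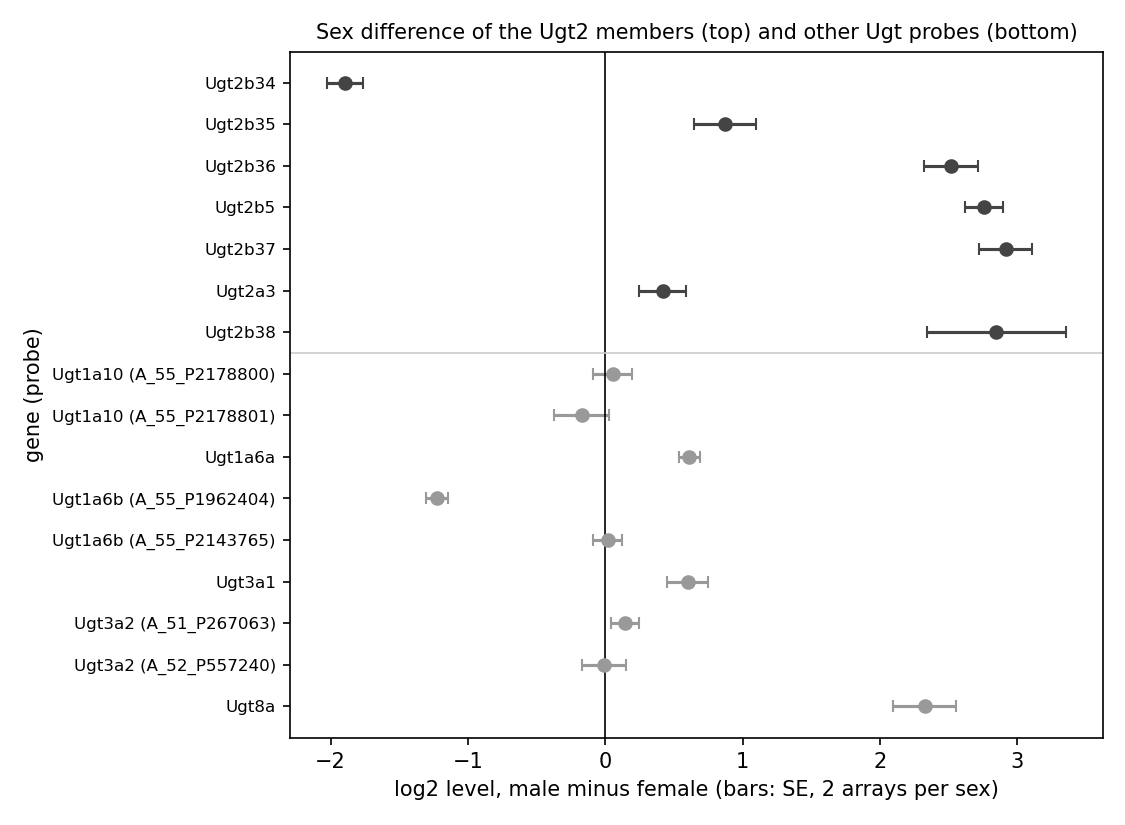
Male minus female log2 level (horizontal axis) of each kept Ugt2 probe (dark) and of the kept probes of other Ugt genes (grey), with bars of 1 SE from 2 arrays per sex. Ugt2b36, Ugt2b5, Ugt2b37 and Ugt2b38 lie between 2.52 and 2.92, Ugt2b34 at −1.89, and of the other Ugt genes only Ugt8a reaches 2.33.

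Of 12 other Ugt genes listed, 6 were named on the array and all 6 were kept. Ugt8a, whose product adds galactose to ceramide, was higher in males by 2.33 ± 0.23 (adjusted p = 0.00285). Ugt1a6a, of the 1A subfamily that conjugates phenols, was higher by 0.61 (adjusted p = 0.00541) and Ugt3a1 by 0.60 (adjusted p = 0.0297). The 2 probes of Ugt1a6b disagreed, at −1.23 (adjusted p = 0.00101) and 0.02 (0.91), and Ugt1a10 and Ugt3a2 did not pass with either of their probes. The median ratio of mutant over wild type of the 6 was 0.37, 0.20, −0.21 and 0.01 on arrays 1 to 4.

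The genes that supply the sugar showed small differences. All 9 listed genes of UDP-glucuronate supply were kept, and 3 passed for sex, beside 42.1% of all probes. Ugdh, the dehydrogenase that makes UDP-glucuronate, was lower in males (−0.37 ± 0.08, adjusted p = 0.0174). The nucleotide sugar transporter genes Slc35d2 (0.44 ± 0.08, adjusted p = 0.0125) and Slc35b1 (0.33 ± 0.09, adjusted p = 0.0353) were higher. The list's median ratio of mutant over wild type was −0.06, −0.01, −0.12 and −0.13 on arrays 1 to 4, with Ugdh at 0.24, −0.25, −0.26 and −0.43. Gusb, the beta-glucuronidase that splits glucuronides, was higher in males by 0.44 ± 0.09 (adjusted p = 0.0144), and Abhd10, which splits acyl glucuronides, did not pass (−0.23, adjusted p = 0.187).

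Among 12 listed transporters of glucuronides and other organic anions, all kept, 3 were higher in males and 5 lower. Over all probes these shares were 17.9% and 24.2%. Abcc3, an efflux pump of conjugates, was lower (−4.41 ± 0.23, adjusted p = 0.000687), as was Abcc4 (−1.55 ± 0.17, adjusted p = 0.00372). The uptake transporter gene Slc22a6 was higher (1.24 ± 0.12, adjusted p = 0.00254). Slco1a1, another uptake transporter gene, was not well above background in any of the 4 females (mean level 6.68) and was at 9.90 in the males (adjusted p = 0.0044). With each dim female at no less than the lowest level well above background in its sample, males were 8.87-fold higher, which is not a strict bound. Of 9 sulfotransferases, which compete for some of the same substrates, 6 were kept. Beside the same shares of all probes, 0 were higher in males and 3 were lower, namely Sult1b1 (−0.67), Sult1a1 (−0.55) and Sult5a1 (−0.39).

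Of 16 transcription factors known to act on Ugt genes, 15 were kept. In males 3 were higher and 4 lower, beside 17.9% and 24.2% of all probes. Nr1i3, the xenobiotic receptor CAR, was higher by 2.74 ± 0.21 (adjusted p = 0.00148), and its ratios of mutant over wild type were 0.18, −0.74, 0.15 and 0.20. The bile acid receptor gene Nr1h4 (0.85) and the estrogen receptor gene Esr1 (0.52) were also higher. Nr1i2, the xenobiotic receptor PXR, was lower (−0.64), as were Ahr (−0.56), Nfe2l2 (−0.55) and Cebpa (−0.82). Hnf4a, a factor of liver and proximal tubule, did not pass (−0.07, adjusted p = 0.6). Its ratio of mutant over wild type was −0.14 on array 2 and −0.21 on array 3.

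Genes known for sex-biased kidney expression were measured beside the cluster. Of 9 kept genes listed as male-biased, 8 were higher in males, such as Acsm3 (5.55) and Cyp4a12a (3.77), and Kap was not (−0.04, adjusted p = 0.761). On array 2 the median mutant over wild-type ratio of these 9 was 0.09 and on array 3 −0.15. Of 6 listed as female-biased, 5 were lower in males, such as Slc7a12 (−4.07), and Cyp7b1 was higher (5.40). Their medians on the same arrays were −0.12 and 0.23.

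Of 14277 genes compared, the 5 whose levels over the 8 samples were most like those of Ugt2b38 were Fam160b1 (r = 0.954), Zfp809 (0.949), Malat1 (0.949), Zmat2 (0.928) and Hmgb1 (0.926). Malat1, a nuclear long noncoding RNA, also came first for Ugt2b36 (0.985) and Ugt2b37 (0.983), and Acin1 came first for Ugt2b5 (0.979). These genes varied far less: the range over samples was 1.58 for Malat1, 0.54 for Fam160b1 and 0.61 for Acin1, against 6.94 for Ugt2b38. The closest to Ugt2b34 was Mettl23 (0.996), to Ugt2b35 Sycp3 (0.939) and to Ugt2a3 Vav2 (0.984). After the mean of each sex was taken away, r between Ugt2b34 and Mettl23 was 0.873. Each of these genes was picked as the highest r of 14277 over 8 samples, which alone makes r high. Among the 50 closest genes of each Ugt2 gene, 3 to 7 lay on chromosome 5, beside 6.07% of all genes compared. After the mean of each sex was taken away it was 3 to 6 of 50. The counts of Ugt2 genes that vary together are not separate observations.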

How the data were processed

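RNA of 8 kidney samples had been hybridised to 4 dual-colour arrays. The deposited intensity values, median spot and background signals of each channel, are, per the submitters' processing notes, the output of Agilent Feature Extraction 10.7.3.1. Raw spots were corrected here with normexp (offset 50), loess within each array and Aquantile between arrays in limma 3.58.1 (R 4.3.3), giving log2 values. Control spots had weight 0, outlier spots were left out, and 55668 of 55681 probes were complete. The deposited value table of the series matrix holds log2-like values centred on each probe's median over the samples, and the scaling applied before centring is not stated in the labels or headers. Over kept probes the column medians were −0.04 to 0.05, it ran the same way as the scanner values (r = 0.891 to 0.924, slope 1.31 to 1.41), and it served as an alternative.

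Genotype was fitted with limma on 4 ratios with a dye term, and sex on 4 array means (2 residual degrees of freedom each). Fits with 1 genotype also had a dye term. The scripts were tested on simulated data. P-values are 2-sided and adjusted over all kept probes at a threshold of 0.05. Arrays are few, which limits precision. Pairs come from the shared array. Deviations from genotype means correlated within pairs by 0.68, 0.67, 0.68 and 0.77, values that sex differences raise. The labels name individuals and nothing further about how they were kept apart.

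Every probe of the 7 genes is reported. Results of some listed genes are not reported here. Other genes were named from lists of the pathway, of sex-biased genes and of cell type markers, from genes within 2 Mb, and as the 5 most alike by Pearson r. The genes and lists were chosen with earlier results of these data known. Where a listed gene has several kept probes the brightest is given for lists. Median spot intensity was 97 to 105 in Cy3 and 220 to 245.5 in Cy5. For reading the arrays, data.table (version 1.17.8) was used. Promoters were aligned with Biopython 1.88 in Python 3.11.15 and figures drawn with matplotlib 3.10.9. Alternatives covered the offset, signal, normalization, filter, probe choice, dye term, pairing, scaling, each replicate left out, and each genotype alone.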

Additional observations from a re-analysis of the deposited data

How the results depend on the processing

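No sex difference of a Ugt2 gene changed sign under an alternative, and Ugt2b34, Ugt2b36, Ugt2b5 and Ugt2b37 kept their sex call in every alternative run (adjusted p up to 0.0218, 0.042, 0.0272 and 0.0311; Ugt2b36 ran from 2.22 to 3.12). Ugt2b38 lost it without replicate 2 and in the mutant samples alone, and Ugt2b35 in 8 of 15 alternatives (adjusted p from 0.00416 to 0.605, difference 0.44 to 1.60). The fitted genotype ratio of Ugt2b38 ran from −3.32 to −0.87, that of Ugt2b36 from −1.88 to −0.47 and of Ugt2b5 from −1.92 to −0.50. For Ugt2b37 it ran from −1.99 to −0.51 and for Ugt2b35 from −2.53 to −0.40. Ugt2b34 ran from −0.29 to 0.05, above 0 in 1 of 13 alternatives. With a replicate left out, the fitted ratio is not the plain mean of the arrays left. Over all probes, 6 passed for genotype, against 3 with an offset of 16, 11 with median normalization, 10 with no filter, and 0 with processed signals and with the series matrix (limma, where 1343 and 1371 had an unadjusted p below 0.05). Without single replicates 1 to 3 passed, and with no replicate block 4. For sex 12203 passed, against 3100 to 10821 without single replicates (3983 without replicate 1, 3100 without replicate 2), 14733 with no replicate block, 6478 in wild-type and 6924 in mutant samples alone, the last pair added after seeing the data. The causes were not tested, and the settings without a replicate or with a single genotype also had fewer samples. Signal limits Ugt2b35, dim in mutants 2 and 3, and Ugt2b36, dim in mutant 2.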

Other observations

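Of the 12 probes with a ratio at or below −1 on both array 2 and array 3, 5 were Ugt2 probes, 1 was Pus1 and 1 was Rpap2, and 5 carried no gene name in the table used; this set was chosen after its values had been seen. All 7 probes with a known position lay on chromosome 5. Of these, 5 are the Ugt2 probes, chosen by these same ratios, and 1 is the targeted gene, so nothing is read from the shared chromosome. Rpap2, which encodes a phosphatase of RNA polymerase II, starts at position 107597373, and its ratios were −0.78, −1.07, −1.11 and −0.82, of which those on arrays 1 and 2 are taken against mutants not well above background. Among the unnamed probes, A_55_P1978636 had ratios of −0.24, −1.15, −1.20 and 0.45, A_55_P2165554 −0.24, −1.24, −1.20 and 0.60, and A_55_P2093862 −0.21, −1.25, −1.04 and 0.55 on arrays 1 to 4, so these 3 were low in mutants 2 and 3 and not in mutant 4. A_55_P1985422 (−0.01, −1.54, −1.0003 and −0.89) was low in mutant 4 as well and not in mutant 1, and A_55_P2097578 was low on all arrays (−1.87, −1.85, −2.08 and −1.67).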
